A study of Mus musculus with 45 samples.

Results

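The genes described here are 10 acute phase genes of the mouse, matched from Ensembl identifiers to symbols: the serum amyloid A genes *Saa1*, *Saa2*, *Saa3* and *Saa4*, the orosomucoid genes *Orm1*, *Orm2* and *Orm3*, haptoglobin (*Hp*), lipocalin 2 (*Lcn2*) and C-reactive protein (*Crp*). They are 10 of the 39179 genes in the count files and of the 17464 genes tested. Liver RNA of 45 female C57BL/6 mice was sequenced, with 5 mice in each of 9 groups. The vehicle group received sesame oil by gavage, and the other 8 groups received TCDD (2,3,7,8-tetrachlorodibenzo-*p*-dioxin), an agonist of the aryl hydrocarbon receptor (AhR), in that oil at low (0.01, 0.03 or 0.1 µg/kg), middle (0.3 or 1 µg/kg) or high doses (3, 10 or 30 µg/kg). Doses were given every 4 days and livers were collected at 28 days. Dosing started on postnatal day 28 by the methods of the study. The sample labels also describe the mice as ovariectomized and use the word daily, which the methods do not.

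Acute phase proteins are secreted mainly by hepatocytes and change in the blood during infection or injury. Interleukin 6 acts through gp130, JAK kinases and STAT3, and interleukin 1 and TNF act through NF-κB, with C/EBP factors binding many of the promoters. In mice, *Saa1* and *Saa2* respond to interleukin 1 and interleukin 6 together and are among the most inducible liver genes, *Hp* and the fibrinogen genes respond mainly to interleukin 6, and *Crp* is only weakly inducible. SAA proteins travel on high-density lipoprotein, orosomucoids are the plasma alpha-1-acid glycoproteins that bind drugs and lipids, haptoglobin captures free haemoglobin, lipocalin 2 binds bacterial iron carriers, and C-reactive protein is a pentraxin that binds damaged membranes and microbes.

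The families lie in clusters on GRCm38, as annotated in GENCODE M21. *Saa3* (chromosome 7, 46711998 to 46715700), *Saa4* (46727998 to 46732603) and *Saa1* (46740497 to 46742980) are on the minus strand, and *Saa2* (46751790 to 46754313) is on the plus strand. *Orm1* (chromosome 4, 63344560 to 63348163), *Orm3* (63356162 to 63359511) and *Orm2* (63362449 to 63365878) are all on the plus strand. *Hp* is at chromosome 8, 109575128 to 109579172, and *Lcn2* at chromosome 2, 32384633 to 32388252, both on the minus strand. The annotated span of *Crp* (chromosome 1, 172698055 to 172833031, plus strand) also holds the pseudogene *Gm38051*.

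The copies are similar enough to share reads. The coding sequences of *Saa1* and *Saa2* were identical at 95.1% of 366 bases and those of *Orm1* and *Orm2* at 89.9% of 621 bases. The stretch from coding base 90 to 149, which spans an exon junction, holds 7 of the 18 coding differences between *Saa1* and *Saa2*. It is shown as a dense run of bases by which a read can tell the copies apart, and the capitals mark the differing bases.
Saa1: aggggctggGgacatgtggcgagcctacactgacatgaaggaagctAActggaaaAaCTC
Saa2: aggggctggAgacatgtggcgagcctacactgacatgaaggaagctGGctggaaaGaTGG
Of all windows of 50 bases, 14.8% of those of *Saa1* and 13.3% of those of *Saa2* also occurred in another gene, and a read from such a window was left out of the counts. The share was 20.4% for *Orm1*, 22.7% for *Orm2*, 3.59% for *Orm3* and 1.78% for *Saa3*, and no window of *Hp* or *Lcn2* was shared. Levels within the *Saa1* and *Saa2* pair and within the *Orm* genes are therefore uncertain, and the fold changes of the summed counts are given beside those of the copies.

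Reads on genes ranged from 11767284 to 56509899 per liver. All 10 genes passed the detection limit of more than 4 reads in any sample, with the fewest reads in any liver being 8, for *Orm3*. Levels are in CPM, reads scaled by the depth and the TMM factor of a library, and tests are edgeR's quasi-likelihood test over all 45 livers with Benjamini-Hochberg adjustment over all genes tested, called at an adjusted p under 0.05. All doses share the same 5 vehicle livers. A differentially expressed gene (DEG) also had a fold change of at least 2. *Cyp1a1*, the classic AhR target, rose with dose from a median of 5.48 CPM in the vehicle group to 7283 CPM at 30 µg/kg. Hepatocyte markers summed to between 105761 and 156817 CPM in every liver. In bulk liver, fewer cells of a type and less RNA per cell cannot be told apart.

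A pair of livers stood apart from their groups, replicate 5 at 0.01 µg/kg and replicate 5 at 0.1 µg/kg. In the first, 9 of the 10 genes were at least 2-fold above the median of the other 4 mice of the dose, and in the second 6 of 10. No other liver had more than 3. They had 47411128 and 56509899 reads, the third deepest and the deepest library. The liver at 0.01 µg/kg also had 69.7 CPM of *Cyp1a1* against a group median of 1.91 CPM, close to the highest value at 0.03 µg/kg (71.8 CPM). Since all groups share an estimate of the spread, both livers widened the errors of every dose for the genes other than *Crp*. The biological coefficient of variation of *Saa1* was 61.5% with them and 32.4% without, and that of *Hp* was 27.7% and 15.9%. For *Crp* it was 14.6% and 14.9%. Results are therefore given for all 45 livers and for the 43 livers without them, a choice made on these same genes after their values were seen.

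**Figure D1:**
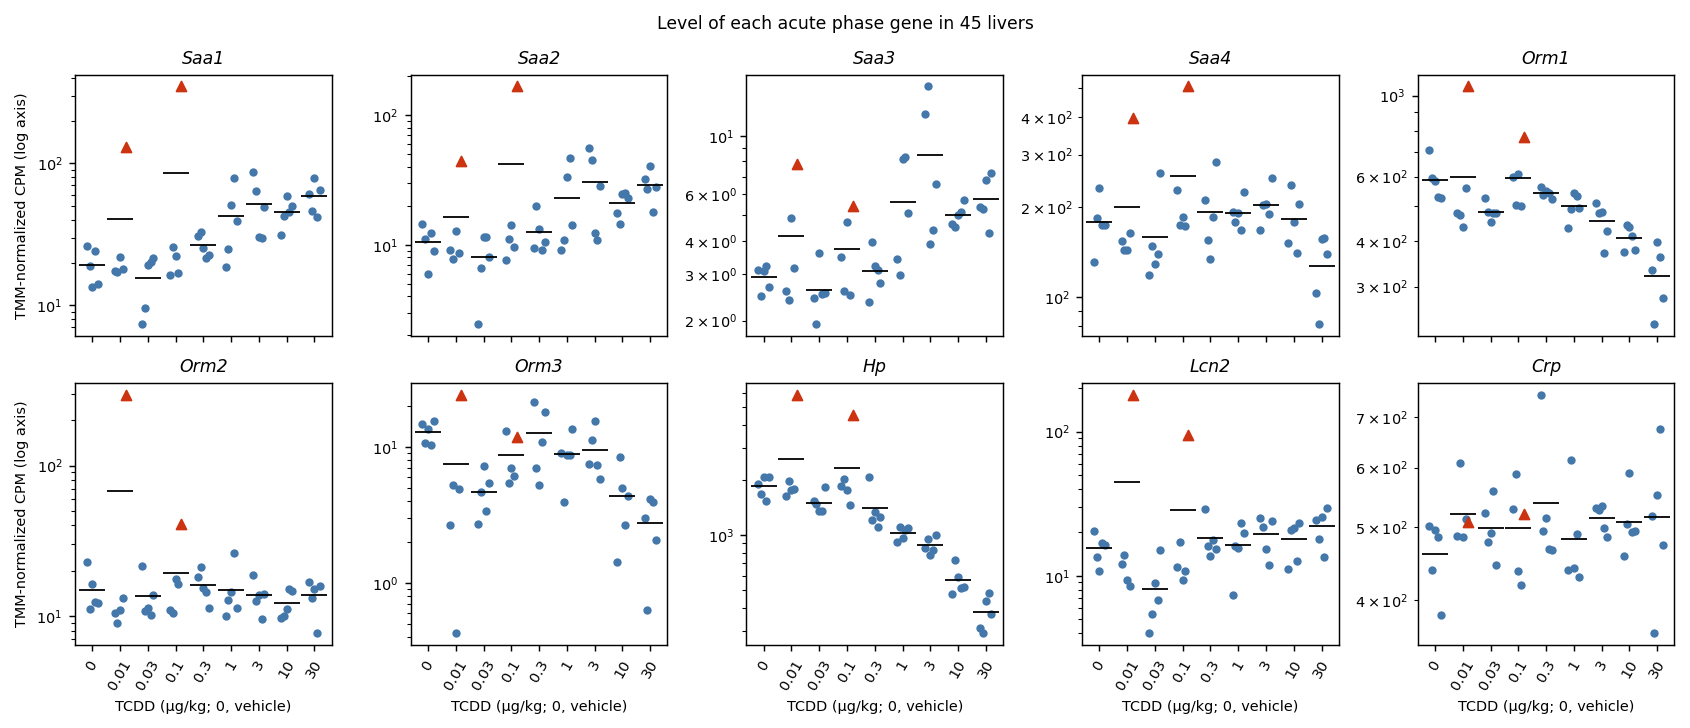
Level of each of the 10 genes in 45 livers (y axis, TMM-normalized CPM, log axis) against the TCDD dose in µg/kg (x axis). Points are single mice, horizontal bars are means of 5 mice, and red triangles are replicate 5 at 0.01 µg/kg and at 0.1 µg/kg. *Hp* falls from a mean of 1856 CPM in the vehicle group to 378 CPM at 30 µg/kg, while *Saa1* rises from 19.4 to 58.7 CPM.

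The 10 genes did not move in one direction. At 30 µg/kg, *Saa1* and *Saa3* rose and *Orm1*, *Orm3* and *Hp* fell, while *Saa2*, *Saa4*, *Orm2*, *Lcn2* and *Crp* did not pass the test. The 5 calls of 10 stand against 29.6% of all genes tested at this dose (15.5% higher and 14.1% lower). *Saa1*, *Orm3* and *Hp* were DEGs, as were 11.4% of all genes. Scaling by library size alone moved the median log2 fold change of all genes at this dose to 0.23 and gave 28.6% higher and 7% lower calls, with 4 of the 10 genes higher, *Saa2* and *Crp* now among them, and the same 3 lower. The median log2 fold change of the 10 was 0.02, against 0.02 over all genes. At 10 µg/kg *Orm1*, *Orm3* and *Hp* fell and none rose, against 15.9% of all genes called (8.47% higher and 7.47% lower). At 3 µg/kg *Saa3* rose and *Hp* fell, against 7.54% (4.34% and 3.2%). Below 3 µg/kg the edgeR test called 0 of the 10 at any dose, where from the lowest dose upwards 0%, 0.0573%, 0.0229%, 0.464% and 1.76% of all genes were called. In the same order, 2, 1, 2, 0 and 2 of the 10 had an unadjusted p under 0.05. So did 1760, 2042, 900, 1835 and 2270 of all 17464 genes tested. DESeq2 and limma also called 0 from 0.01 to 0.3 µg/kg, and each called 1 at 1 µg/kg, *Hp*.

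Counted by livers that did not overlap with the vehicle group, 3 genes lay wholly above and 3 wholly below it at 30 µg/kg, where 10.3% and 9.57% of all genes did. The 3 above were *Saa1*, *Saa2* and *Saa3* and the 3 below *Orm1*, *Orm3* and *Hp*. The same 6 genes stood apart in this way at 10 µg/kg, against 8.1% and 6.13% of all genes. At 3 µg/kg *Saa1* and *Saa3* lay above and *Orm1* and *Hp* below, against 4.6% and 3.36%. At lower doses only *Hp* at 1 µg/kg and *Orm1* and *Orm3* at 0.03 µg/kg did not overlap, all below the vehicle group. Of all genes, 2% at 1 µg/kg and 1.34% at 0.03 µg/kg lay wholly below it.

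Without both livers that stood apart, the calls at 1, 3, 10 and 30 µg/kg were 2, 5, 4 and 7 of the 10, against 2.1%, 9.09%, 17.7% and 31.2% of all genes, and none was called from 0.01 to 0.3 µg/kg. The added calls were *Saa1* and *Hp* at 1 µg/kg, *Saa1*, *Saa2* and *Orm1* at 3 µg/kg, *Saa1* at 10 µg/kg, and *Saa2* and *Saa4* at 30 µg/kg. Both livers left out belong to other doses and the fit has 1 coefficient per group, so the fold changes at these doses could hardly differ between both sets. The standard errors of the genes with added calls narrowed.

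**Figure D2:**
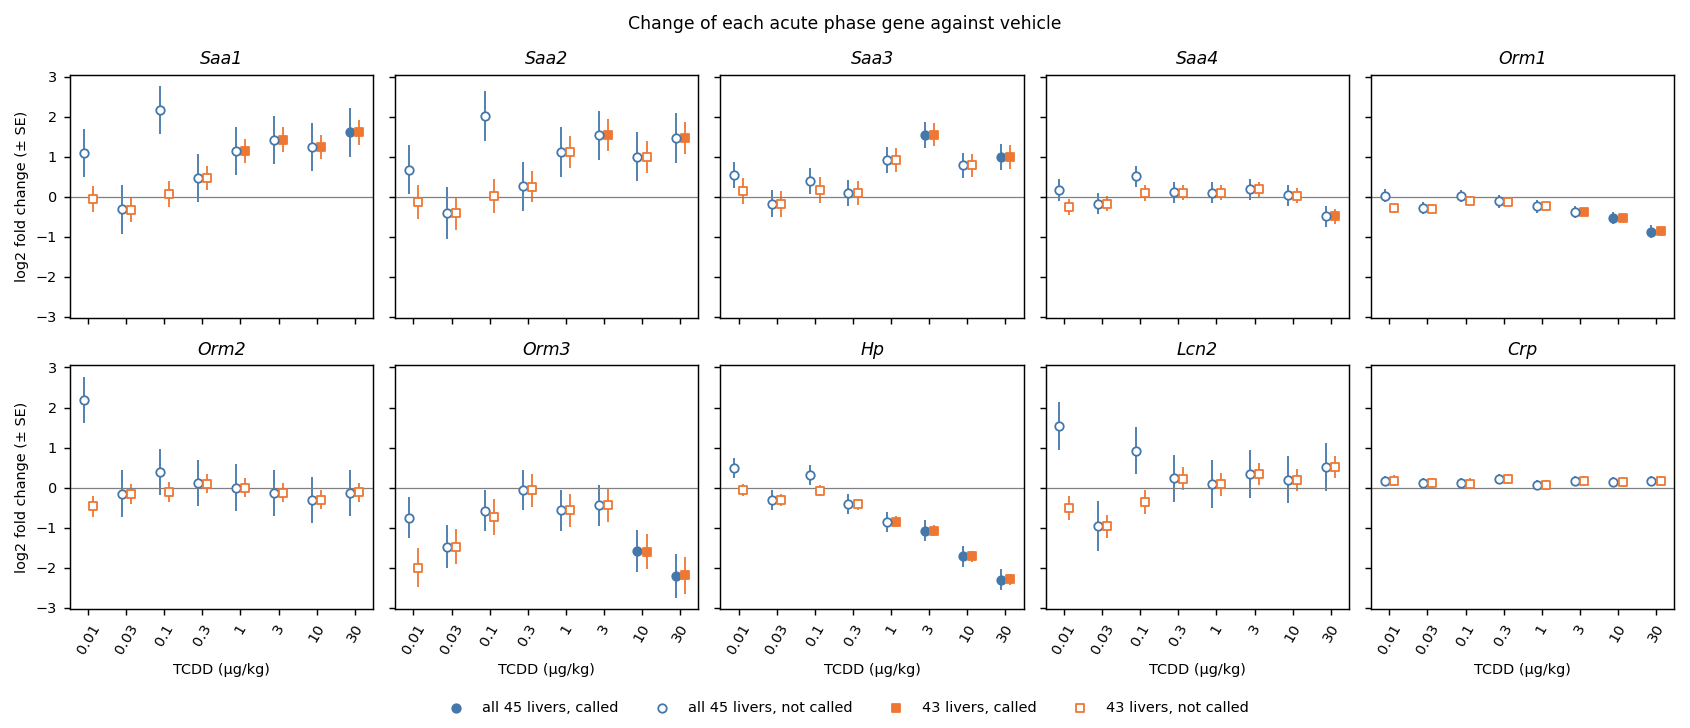
Log2 fold change against vehicle (y axis, bars are ± 1 SE of the edgeR fit) at each TCDD dose in µg/kg (x axis) for the 10 genes. Circles are fits of all 45 livers, squares fits of 43 livers without both that stood apart, and filled symbols are calls at an adjusted p under 0.05. For *Saa1* at 30 µg/kg, a dose that loses no liver, the log2 fold change is 1.61 in both fits, with an SE of 0.60 and of 0.30.

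*Hp* had the highest level per length of the 10 in the vehicle group, at 1380 ± 177 CPM per kb of exon (SD, n = 5), and the clearest fall. The vehicle livers held 1911, 1683, 2070, 1541 and 2075 CPM. At 30 µg/kg they held 309.5, 290.8, 436, 484 and 370.4 CPM. Every liver at 1 µg/kg and above lay below every vehicle liver, and the ranges were far apart at the top dose. At the lower doses the means were 2592 ± 1805 CPM at 0.01 and 2325 ± 1260 CPM at 0.1 µg/kg, the doses with the livers that stood apart, and 1506 ± 195 CPM at 0.03 and 1400 ± 392 CPM at 0.3 µg/kg. They were then 1029 ± 83.5 CPM at 1, 881 ± 90.7 CPM at 3, 564 ± 99.9 CPM at 10 and 378 ± 82.1 CPM at 30 µg/kg (SD, n = 5 each). The level thus fell at each step of dose from 0.3 µg/kg upwards.

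The log2 fold change of *Hp* was −1.07 ± 0.25 (SE) at 3 µg/kg, with an adjusted p of 0.00517 in the edgeR test. It was −1.72 ± 0.26 at 10 µg/kg (adjusted p = 3.34e-06) and −2.30 ± 0.26 at 30 µg/kg (adjusted p = 4.49e-09), a fall to 20.4% of vehicle. At 1 µg/kg it was −0.85 ± 0.25, with an adjusted p of 0.0754 over 45 livers and of 9.78e-05 over 43. At that dose the groups did not overlap, which held for 2% of all genes in this direction. Leaving out only the liver at 0.01 µg/kg gave an adjusted p of 0.00752 and only that at 0.1 µg/kg 0.0276.

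The orosomucoid genes differed among themselves. *Orm1*, the most abundant of them at 758 ± 96.6 CPM per kb in the vehicle group, fell with dose. Its vehicle values were 709, 594, 582, 529 and 524 CPM, and its values at 30 µg/kg were 333, 237, 399, 361 and 279.5 CPM. The groups did not overlap at 0.03, 3, 10 or 30 µg/kg, where 1.34%, 3.36%, 6.13% and 9.57% of all genes lay wholly below the vehicle group. At 0.03 µg/kg the gap was very small, from 522.9 CPM in the highest liver to 523.8 CPM in the lowest vehicle liver. The log2 fold change there was −0.29 and was not called (adjusted p = 0.467). *Orm1* changed by a log2 fold of −0.52 ± 0.15 (SE) at 10 µg/kg (adjusted p = 0.0152) and −0.87 ± 0.16 at 30 µg/kg (adjusted p = 2.82e-05). The call at 10 µg/kg was lost without vehicle replicate 1, the highest vehicle liver, where the adjusted p was 0.0572, and with scaling by library size alone (−0.40, adjusted p = 0.0709). At 3 µg/kg the log2 fold change of −0.38 ± 0.15 was not called over 45 livers (adjusted p = 0.135) and was called over 43 (adjusted p = 0.0171). It was also called without the liver at 0.01 µg/kg alone (adjusted p = 0.0241).

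*Orm3* was a low gene that varied widely between mice. The vehicle livers held 14.7, 10.7, 13.6, 10.3 and 15.4 CPM, and those at 30 µg/kg held 3.02, 0.630, 4.14, 3.90 and 2.08 CPM. The groups did not overlap, and the mean fell from 12.9 ± 2.34 to 2.75 ± 1.44 CPM (SD, n = 5), a log2 fold change of −2.20 ± 0.55 (SE; adjusted p = 0.00189). At 10 µg/kg it was −1.59 ± 0.53 (adjusted p = 0.0322). The call at 10 µg/kg was lost without any 1 of 6 mice, vehicle replicates 1, 3 and 5 and replicates 1, 4 and 5 of the dose, with adjusted p-values from 0.0516 to 0.0928.

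The course of *Orm3* was not monotonic. At 0.03 µg/kg its livers held 2.72, 4.66, 7.23, 3.35 and 5.41 CPM, all below the vehicle range, a lack of overlap seen in 1.34% of all genes in this direction. The log2 fold change there was −1.47 ± 0.53 (SE), with an adjusted p of 0.262. At 0.01 µg/kg the other 4 livers held 0.428 to 5.19 CPM against 23.9 CPM in replicate 5, and the log2 fold change without that liver was −1.999 (adjusted p = 0.203). At 0.3 µg/kg the mean was 12.5 ± 7.01 CPM, close to the vehicle mean. Low values of *Orm3* were therefore present at both ends of the dose range, and only those at 10 and 30 µg/kg were called.

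*Orm2* did not pass the test against vehicle at any dose in either set of livers. Its vehicle mean was 15.0 ± 4.83 CPM and its mean at 30 µg/kg 13.7 ± 3.62 CPM (SD, n = 5), with a log2 fold change of −0.13 and a 95% interval from −1.29 to 1.04. A difference over all 9 groups was called with 45 livers (adjusted p = 0.00101) and not with 43 (adjusted p = 0.657). When the counts of the 3 *Orm* genes were summed, the log2 fold change at 30 µg/kg was −0.88 (adjusted p = 0.00021), close to that of *Orm1*, which holds most of the reads.

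Of the serum amyloid genes, *Saa1* and *Saa3* rose at 30 µg/kg, where *Hp* fell. *Saa1* held 26.3, 18.9, 13.6, 24.01 and 14.1 CPM in the vehicle livers and 61.0, 46.4, 78.8, 42.0 and 65.4 CPM at 30 µg/kg. All livers at 3, 10 and 30 µg/kg lay above the vehicle range. The mean rose from 19.4 ± 5.73 to 58.7 ± 14.9 CPM (SD, n = 5), and the log2 fold change at 30 µg/kg was 1.61 ± 0.60 (SE; adjusted p = 0.0393). This call was lost without any 1 of 7 mice, vehicle replicates 2 to 5 and replicates 1, 3 and 5 of the dose, with adjusted p-values from 0.0516 to 0.0848. Over 43 livers the log2 fold change was 1.14 at 1 µg/kg (adjusted p = 0.0325), 1.43 at 3 µg/kg (adjusted p = 0.00145), 1.24 at 10 µg/kg (adjusted p = 0.00295) and 1.61 at 30 µg/kg (adjusted p = 6.63e-05).

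*Saa2* followed *Saa1* at a lower level per length in the vehicle group (17.4 ± 5.38 against 31.8 ± 9.40 CPM per kb, SD, n = 5). It held 14.4, 11.1, 5.92, 12.4 and 8.997 CPM in the vehicle livers and 32.1, 26.9, 40.3, 18.1 and 28.1 CPM at 30 µg/kg. The groups did not overlap at 10 or 30 µg/kg. Its log2 fold change at 30 µg/kg was 1.47 ± 0.62 (SE), with an adjusted p of 0.0677 over 45 livers, of 0.0121 without the liver at 0.1 µg/kg and of 0.00379 over 43. Summed with *Saa1*, it was 1.54 with an adjusted p of 0.0458.

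*Saa3* is expressed by macrophages and fat as well as by liver, and was the lowest of the 10 per length in the vehicle group (5.25 ± 0.573 CPM per kb). The vehicle livers held 3.11, 2.48, 3.08, 3.22 and 2.68 CPM, which is 39 to 53 reads. At 3 µg/kg the livers held 12.1, 15.4, 3.89, 4.38 and 6.59 CPM, and at 30 µg/kg 5.36, 5.27, 6.83, 4.29 and 7.21 CPM. Neither dose overlapped with the vehicle, and 2 livers at 3 µg/kg stood well above the rest of their group. *Saa3* changed by a log2 fold of 1.54 ± 0.32 (SE) at 3 µg/kg (adjusted p = 0.00111), 0.78 ± 0.32 at 10 µg/kg (adjusted p = 0.093) and 0.99 ± 0.32 at 30 µg/kg (adjusted p = 0.0173). These calls held in both sets of livers. The highest mean was at 3 µg/kg and not at the top dose, but the step from 3 to 10 µg/kg was not called.

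*Saa4*, the constitutive member of the family, was not called higher at any dose. Its mean was 179 ± 35.8 CPM in the vehicle group and 128 ± 33.9 CPM at 30 µg/kg (SD, n = 5), and the groups overlapped. The log2 fold change of −0.49 ± 0.27 (SE) had an adjusted p of 0.172 over 45 livers and of 0.0455 over 43.

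*Lcn2* and *Crp* passed at no dose in either set of livers, and *Crp* passed at 30 µg/kg with scaling by library size alone (log2 fold change 0.37, adjusted p = 0.0209). *Lcn2* ranged from 10.9 to 20.5 CPM in the vehicle group and from 13.5 to 29.7 CPM at 30 µg/kg, with a log2 fold change of 0.51 and a 95% interval from −0.68 to 1.71. Over all 9 groups it missed the threshold with 45 livers (adjusted p = 0.0578) and passed with 43 (adjusted p = 0.00239). Its lowest mean was at 0.03 µg/kg, 8.04 ± 4.32 CPM (SD, n = 5), where the log2 fold change was −0.97 over 43 livers (adjusted p = 0.175). *Crp* had the narrowest range of the 10 in CPM, 2.07-fold over all 45 livers from 361 to 749 CPM. Its log2 fold changes lay between 0.07 and 0.22 at all doses, and at 30 µg/kg the 95% interval ran from −0.09 to 0.42.

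Over all 9 groups together, 7 of the 10 differed with 45 livers, against 28.8% of all genes, and 7 with 43 livers, against 32% of all genes, where *Lcn2* replaced *Orm2*. Between neighbouring doses no gene of the 10 was called with 45 livers, where 0.784% of all genes were called in the step from 3 to 10 µg/kg, 0.613% in that from 10 to 30 µg/kg, 0.115% in that from 0.3 to 1 µg/kg, 0.0115% in that from 0.03 to 0.1 µg/kg and 0% to 0.178% in the others. DESeq2 and limma also called 0 of these 70 tests. An unadjusted p under 0.05 was seen in 20 of them, 14 of which were steps from or to a dose with a liver that stood apart. The share of all genes with such a p in these steps was not counted. With 43 livers *Hp* was lower at 10 than at 3 µg/kg by a log2 difference of −0.65 (adjusted p = 0.00855) and lower at 30 than at 10 µg/kg by −0.57 (adjusted p = 0.0336). In the order of the group means, 5 of 8 neighbouring pairs of *Hp* were further apart than the pooled SD of the pair. This held for 2 pairs of *Orm1*, 1 pair each of *Saa1* and *Lcn2*, and none of the other 6 genes.

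The livers that stood apart showed what these genes can reach in the same cohort. In replicate 5 at 0.1 µg/kg *Saa1* was at 348 CPM against 16.4 to 25.8 CPM in the other 4 mice, a ratio of 17.6 to their median. *Saa2* was at 167 CPM against 7.65 to 14.1 CPM, a ratio of 16.2. Both were several times higher than in any liver at 30 µg/kg. *Lcn2* was 8.49 times, *Orm2* 2.96 times, *Saa4* 2.81 times and *Hp* 2.52 times the median of the other mice, while *Saa3*, *Orm1*, *Orm3* and *Crp* were less than 2-fold higher.

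Replicate 5 at 0.01 µg/kg had a different order. *Orm2* was highest relative to its group, at 293 CPM against 8.96 to 13.3 CPM, a ratio of 27.6. *Lcn2* followed at 179 CPM against 8.49 to 13.9 CPM, a ratio of 16.6. *Saa1* was 7.34 times, *Orm3* 6.32 times, *Saa2* 4.95 times and *Hp* 3.28 times the median of the other mice. *Hp* reached 5813 CPM, the highest of all 45 livers. *Crp* was 1.02 times the median of the others in this liver and 1.08 times in the liver at 0.1 µg/kg.

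The markers of other cells differed between both livers. Macrophage and Kupffer cell markers summed to 1126 CPM in replicate 5 at 0.01 µg/kg, against 167 to 328 CPM in the rest of its group, and 9 of 9 were at least 2-fold above the median of the other mice. Neutrophil markers summed to 18.1 CPM against 0.584 to 1.07 CPM, with 7 of 8 at least 2-fold above. In replicate 5 at 0.1 µg/kg these sums were 342 and 2.35 CPM, within the range of the other 4 mice (122 to 378 CPM and 0 to 2.76 CPM). No marker of either list was 2-fold above. All such 2-fold counts of a liver were taken after adding 0.5 CPM to both values. A marker below 0.5 CPM in a liver could therefore not reach 2-fold, which limits the count for the low neutrophil markers. *Ly6g*, a defining neutrophil marker, had at most 1 read in any liver. The part of these cells in the values of the liver at 0.01 µg/kg was not tested.

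**Figure D3:**
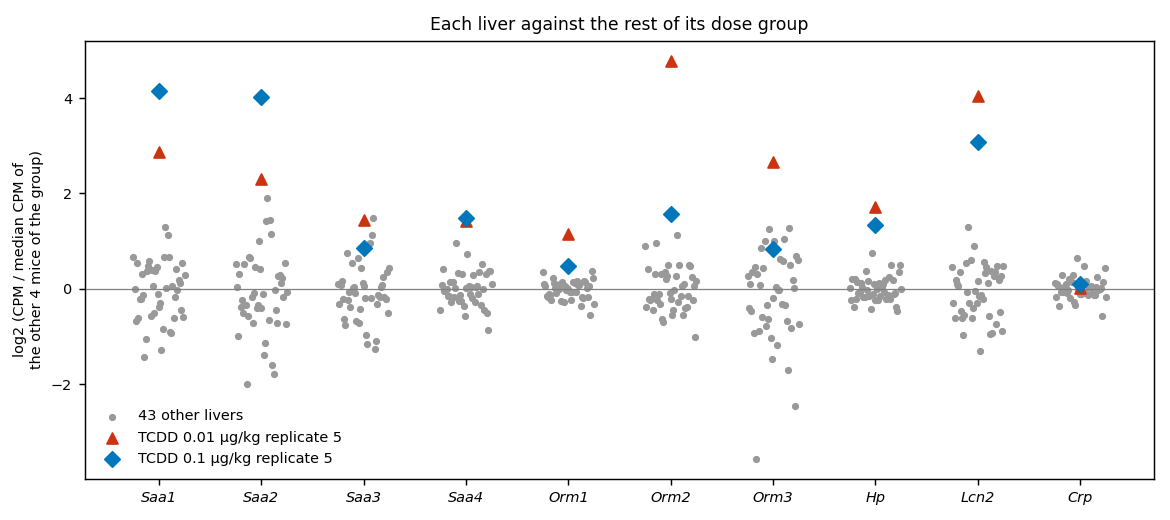
Each liver's level relative to the rest of its dose group (y axis, log2 of CPM over the median CPM of the other 4 mice) for the 10 genes (x axis). Grey points are 43 livers, the red triangle is replicate 5 at 0.01 µg/kg and the blue diamond replicate 5 at 0.1 µg/kg. The triangle is highest for *Orm2* (4.78) and the diamond for *Saa1* (4.14), and both lie near 0 for *Crp*.

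Some of the genes rose and fell together across the livers of all doses. Correlations of log2 CPM (prior count of 2) were computed for all 45 pairs of the 10 genes, with p-values from 100000 permutations adjusted over the pairs. Livers were permuted here without regard to dose. A pair that shares a course over dose can therefore give a small p without a relation among mice of the same dose. *Saa1* and *Saa2* had a Pearson's r of 0.958 and a Spearman's rho of 0.937, *Saa1* and *Lcn2* 0.839 and 0.802, *Saa2* and *Saa3* 0.807 and 0.875, and *Orm1* and *Hp* 0.872 and 0.750. For *Saa1* with *Saa2*, *Saa3* or *Lcn2*, *Saa2* with *Saa3*, and *Orm1* with *Hp*, the permutation p was 1e-05 for r and for rho, the smallest these permutations can give (adjusted p = 6.43e-05 for r and 5.62e-05 for rho). Leaving out the 2 livers farthest from the median of the first gene gave an r of 0.945 for *Saa1* and *Saa2*, 0.791 for *Saa1* and *Lcn2*, 0.903 for *Saa2* and *Saa3* and 0.831 for *Orm1* and *Hp*. *Saa1* and *Saa2* share part of their sequence, and the part of shared reads in this value was not tested.

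The relation of *Saa1* to *Hp* depended on which livers were used. Over 45 livers r was −0.18 (permutation p = 0.236, adjusted p = 0.379) and rho −0.50 (permutation p = 0.00046, adjusted p = 0.00188). Without both livers that stood apart r was −0.70 (permutation p = 1e-05, adjusted p = 5e-05). On deviations from the group means, with mice permuted within groups, r was 0.70 over 45 livers (permutation p = 0.00715, adjusted p = 0.0143) and 0.13 over 43 (permutation p = 0.356, adjusted p = 0.524). Both livers were left out for high values of these same genes, *Saa1* and *Hp* among them. The r and p over 43 livers therefore depend on that choice and are a description. By rank, the pair went in opposite directions over 45 livers of all doses. Both genes were high in the livers that stood apart, and no relation was detected among the other mice of a dose.

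*Saa1* and *Saa2* (r = 0.895), *Saa2* and *Saa3* (r = 0.767), *Saa1* and *Lcn2* (r = 0.741) and *Saa4* and *Orm3* (r = 0.534) stayed related within dose groups over 43 livers, with adjusted permutation p-values of 0.000225, 0.0003, 0.000225 and 0.00216. *Orm1* and *Hp* had an r of 0.393 there (permutation p = 0.0233, adjusted p = 0.0748). In all, 22 of 45 pairs passed over 45 livers, 29 on deviations from group means, 17 over 43 livers and 11 on deviations over 43 livers. *Crp* had an r between −0.08 and 0.155 with each of the other genes in both sets of livers, but within dose groups over 43 livers it was related to *Hp* (r = 0.589, permutation p = 0.00223, adjusted p = 0.0167) and to *Orm1* (r = 0.464, permutation p = 0.0102, adjusted p = 0.0418).

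**Figure D4:**
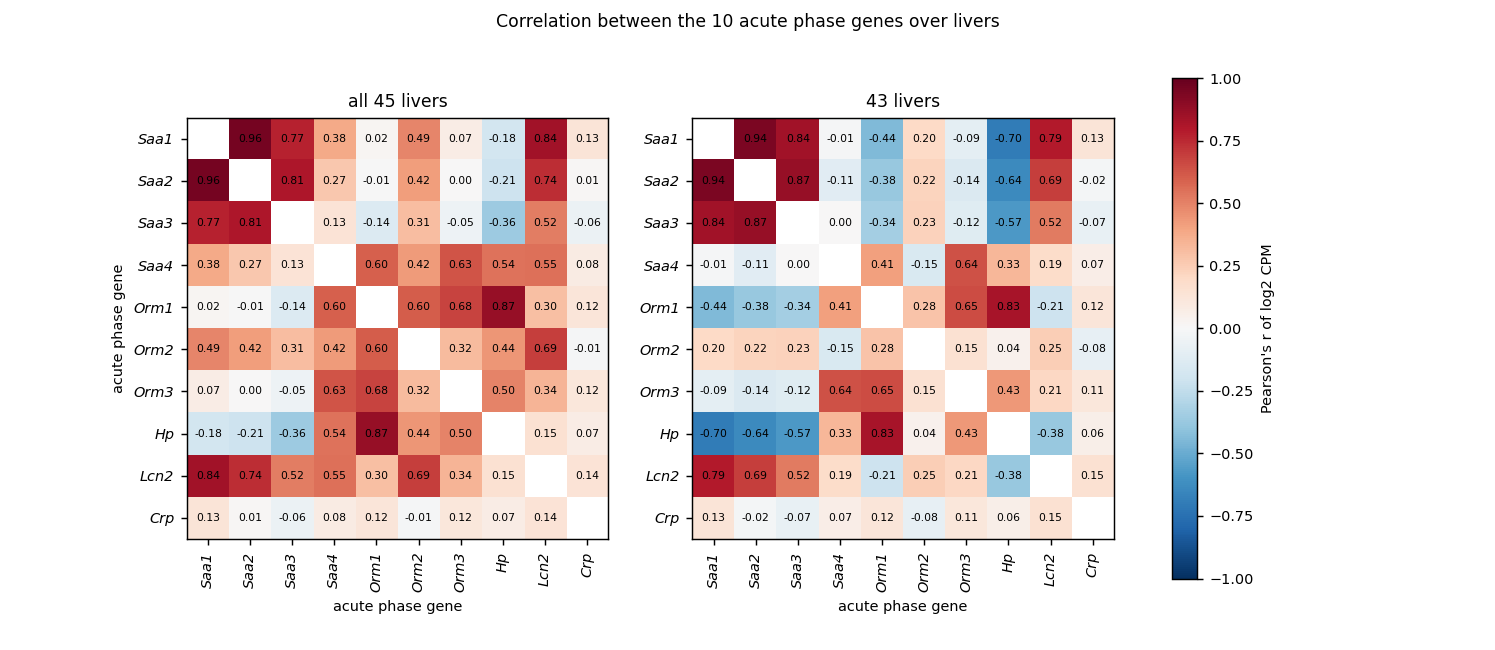
Pearson's r of log2 CPM (colour and printed value) between each pair of the 10 acute phase genes (both axes) over all 45 livers on the left and over 43 livers without both that stood apart on the right. The pair of *Saa1* and *Hp* goes from −0.18 on the left to −0.70 on the right, while *Saa1* and *Saa2* stay at 0.96 and 0.94.

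Among all genes tested, the genes with the pattern most like each of the 10 over 45 livers were named by Pearson's r of log2 CPM, which is a description over livers that share doses. For *Hp* they were *Ang* (r = 0.927), *Ambp* (0.912) and *C4bp* (0.907), all secreted by liver. For *Orm1* they were *Hp* (0.872), *Fgl1* (0.836) and *Ang* (0.830). For *Saa3* they were the interferon-inducible *Gbp2* (0.834) and the MHC class II genes *H2-Eb1* (0.832) and *H2-Ab1* (0.823). Those of *Saa1* were *Saa2*, *Lcn2* and *Saa3*, and those of *Saa2* were *Saa1*, *Saa3* and *Irf8* (0.754). *Lcn2* was nearest to *Saa1*, *Saa2* and *Lrg1* (0.699), *Orm2* to *Hs3st2* (0.828), *Orm3* to *9030619P08Rik* (0.790) and *Saa4* to *Cd302* (0.732). The highest r of *Crp* was 0.618, with *Ppp1r3c*. On deviations from the group means over 45 livers, the nearest to *Saa3* were *Gbp2* (0.799), *Saa2* (0.753) and *Hpx* (0.749). Those nearest to *Hp* were then *Lrg1* (0.828), *Lcn2* (0.811) and *Saa4* (0.780).

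Promoter sequence from RefSeq (GRCm38.p6) was matched for 8 of the 10 genes, and 250 bases before each start were searched on both strands, with overlapping matches of different motifs all counted. The C/EBP motif TTNNGNAA, the STAT motif TTCNNNGAA, the AhR core GCGTG and the kappa-B consensus occur in 36.8%, 7.02%, 28.2% and 3.9% of 32851 mouse promoter windows of this length. The C/EBP motif was found in all 8, with 4 matches in *Saa3*, 2 each in *Saa1*, *Saa4* and *Orm2*, and 1 each in *Saa2*, *Orm3*, *Lcn2* and *Crp*. The letters of the other 3 motifs were not in these windows. The sequences below, in lower case with C/EBP matches in capitals, are those of the called *Saa1*, *Saa3* and *Orm3* and of their close copies *Saa2* and *Orm2*, without bases that the annotation places in a transcript (chr7:46742981-46743230 minus, chr7:46751583-46751789 plus, chr7:46715701-46715926 minus, chr4:63355908-63356157 plus and chr4:63362199-63362448 plus, in the order printed).
Saa1: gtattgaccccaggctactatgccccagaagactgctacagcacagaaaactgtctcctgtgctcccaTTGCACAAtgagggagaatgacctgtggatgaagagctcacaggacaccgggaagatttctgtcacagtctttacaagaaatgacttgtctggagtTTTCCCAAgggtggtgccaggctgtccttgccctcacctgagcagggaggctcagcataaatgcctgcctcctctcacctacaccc
Saa2: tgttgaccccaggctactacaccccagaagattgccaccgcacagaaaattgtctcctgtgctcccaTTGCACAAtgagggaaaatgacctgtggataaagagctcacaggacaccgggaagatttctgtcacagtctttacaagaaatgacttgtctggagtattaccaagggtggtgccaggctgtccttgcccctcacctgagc
Saa3: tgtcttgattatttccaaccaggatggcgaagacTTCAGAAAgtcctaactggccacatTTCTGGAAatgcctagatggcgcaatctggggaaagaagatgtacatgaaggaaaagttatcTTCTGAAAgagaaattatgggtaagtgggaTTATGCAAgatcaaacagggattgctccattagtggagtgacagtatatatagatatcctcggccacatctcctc
Orm3: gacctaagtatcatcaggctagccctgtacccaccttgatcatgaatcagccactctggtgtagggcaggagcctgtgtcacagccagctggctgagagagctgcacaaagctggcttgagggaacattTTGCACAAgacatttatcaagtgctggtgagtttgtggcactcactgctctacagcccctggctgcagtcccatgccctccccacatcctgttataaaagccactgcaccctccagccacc
Orm2: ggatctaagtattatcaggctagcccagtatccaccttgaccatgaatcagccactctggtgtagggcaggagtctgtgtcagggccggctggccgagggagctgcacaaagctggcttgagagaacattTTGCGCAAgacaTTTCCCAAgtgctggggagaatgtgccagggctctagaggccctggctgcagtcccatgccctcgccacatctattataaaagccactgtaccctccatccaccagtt
The windows of *Saa1* and *Saa2* were identical at 94.8% of aligned positions, and TTGCACAA begins 182 bases before the RefSeq start of *Saa1* and 183 bases before that of *Saa2*. *Saa1* has a further match, TTTCCCAA, which *Orm2* also has. *Orm3* holds TTGCACAA and *Orm2* the palindrome TTGCGCAA. A match is a run of letters and not a measured site.

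Other acute phase genes fell with *Hp* rather than rising with *Saa1*. Of 19 other positive acute phase genes, 11 fell and 0 rose at 30 µg/kg, against 14.1% of all genes called lower, and their median log2 fold change was −0.88. Over 43 livers 11 fell and 2 rose, where 31.2% of all genes were called in either direction. Those that rose were haemopexin (*Hpx*, log2 fold change 0.38, adjusted p = 0.024) and *Cd14* (0.81, adjusted p = 0.0117). *Apcs*, the pentraxin that is the main acute phase pentraxin of mice, fell from 112 ± 16.5 to 17.95 ± 3.46 CPM (SD, n = 5), a log2 fold change of −2.64 ± 0.26 (SE; adjusted p = 6.08e-11). *Serpina3m*, a protease inhibitor, fell by 1.63 on the log2 scale (adjusted p = 3.14e-07), *Lbp*, which binds bacterial lipopolysaccharide, from 67.6 to 23.9 CPM (adjusted p = 1.23e-06) and *Itih4* by 0.91 (adjusted p = 3.81e-06). The fibrinogen genes *Fga*, *Fgb* and *Fgg* were among the 11. At 10 µg/kg 9 of the 19 fell, against 7.47% of all genes called lower. At 3 µg/kg only *Apcs* fell (−1.08, adjusted p = 0.00271), against 3.2% of all genes.

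Of 7 negative acute phase genes, whose plasma proteins drop in inflammation, 3 fell and 1 rose at 30 µg/kg, against 14.1% and 15.5% of all genes (2 and 2 with scaling by library size alone). *Apoa1*, the main protein of high-density lipoprotein, fell by 1.67 on the log2 scale (adjusted p = 2.36e-07), *Ahsg* by 0.63 (adjusted p = 9.77e-05) and *Ttr* by 0.34 (adjusted p = 0.00277). *Serpina6*, which encodes the corticosteroid carrier, rose by 0.97 ± 0.18 (SE; adjusted p = 5.57e-05). *Alb* had a log2 fold change of −0.08 (adjusted p = 0.65).

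**Figure D5:**
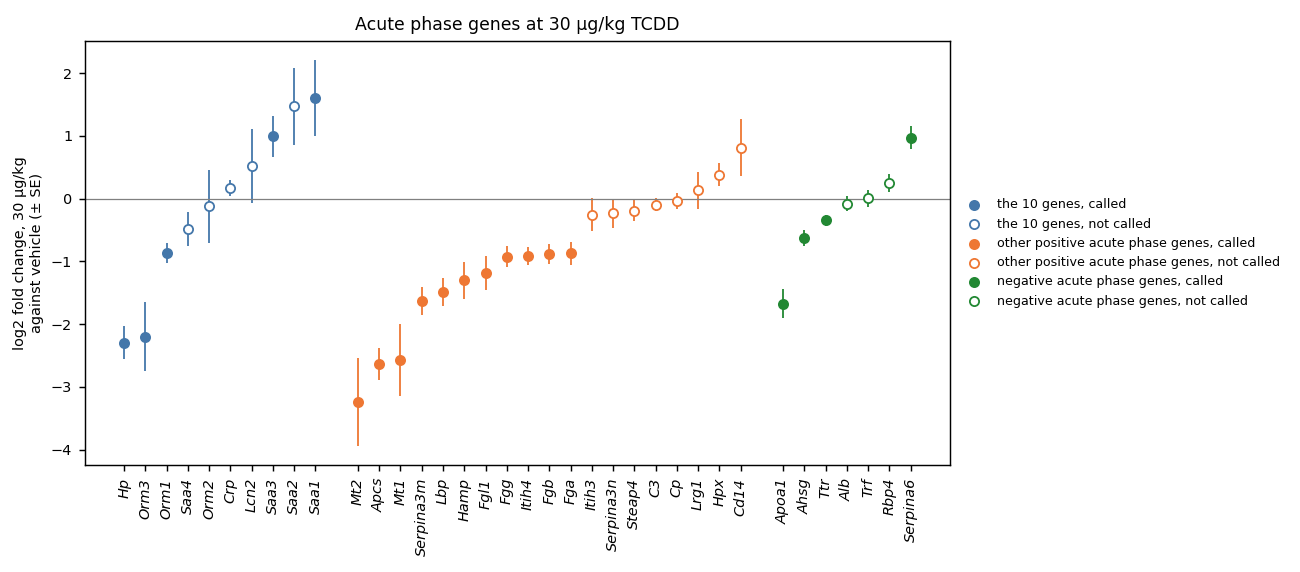
Log2 fold change at 30 µg/kg against vehicle (y axis, bars are ± 1 SE of the edgeR fit over 45 livers) for the 10 genes, 19 other positive and 7 negative acute phase genes (x axis, sorted within each list). Filled points are calls at an adjusted p under 0.05. All 11 called genes of the middle list lie below 0, down to *Mt2* at −3.24, whereas the 10 genes hold calls on both sides.

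The lists of signalling genes held few genes each, and their counts are read against the 29.6% of all genes called at 30 µg/kg, 15.5% higher and 14.1% lower. Of 6 cytokine genes tested, *Il1a* (log2 fold change 0.97, adjusted p = 0.00107), *Il1b* (2.17, adjusted p = 0.00192) and *Tnf* (2.40, adjusted p = 0.00413) rose at 30 µg/kg. *Il1b* averaged 0.280 CPM in the vehicle group and 1.32 CPM at 30 µg/kg, and *Tnf* 0.0692 and 0.412 CPM, so few reads lie behind these folds. *Il6* was at 0.0142 CPM in the vehicle group and 0.0343 CPM at 30 µg/kg (adjusted p = 0.459). *Osm*, *Il11* and *Il22* were not above the detection limit. Circulating cytokines made outside the liver are not measured by these data.

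Of 11 receptors and kinases, 2 rose and 3 fell, not far from the shares over all genes. The interleukin 1 receptor subunit *Il1rap* fell by 0.92 (adjusted p = 2.03e-07), *Lifr* by 0.68 (adjusted p = 0.00181) and *Jak1* by 0.29 (adjusted p = 0.00266), while *Il6st*, which encodes gp130, rose by 0.33 (adjusted p = 0.0123) and *Il22ra1* by 1.06 (adjusted p = 0.0166), all on the log2 scale. Of 10 transcription factors 3 were called, about the share over all genes. *Cebpa* fell by 0.90 (adjusted p = 1.9e-05), *Nr3c1*, the glucocorticoid receptor, fell by 0.54 (adjusted p = 1.81e-05), and *Relb* rose by 0.86 (adjusted p = 0.0253). *Stat3* had a log2 fold change of −0.15 ± 0.16 (SE; adjusted p = 0.536) and *Cebpb* of −0.10 ± 0.49 (adjusted p = 0.905).

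Of 9 inhibitors and feedback genes 3 were called, also near the share over all genes. *Il1r2*, the decoy receptor of interleukin 1, rose from 0.0101 to 0.565 CPM (adjusted p = 1.61e-05), with very few vehicle reads behind the change. *Socs1* rose by 2.41 (adjusted p = 0.0105) and *Nfkbia* fell by 0.49 (adjusted p = 0.0283). *Socs3*, the STAT3 feedback gene, had a log2 fold change of 1.01 ± 0.47 (SE; adjusted p = 0.101). Of 10 receptors and carriers of acute phase proteins 3 were called, near 29.6% too. *Cd36* (1.63, adjusted p = 1.77e-09), *Tlr4* (0.98, adjusted p = 0.00657) and *Fcgr2b* (0.77, adjusted p = 0.000112) rose.

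Markers of immune cells were counted in the same way. At 3 µg/kg 0 of 8 neutrophil and 0 of 9 macrophage and Kupffer cell markers were called, against 7.54% of all genes. At 10 µg/kg 2 neutrophil markers rose and 0 macrophage markers were called, against 8.47% of all genes called higher. At 30 µg/kg 3 of 8 neutrophil markers and 2 of 9 macrophage and Kupffer cell markers rose and none fell. Of all genes 15.5% were called higher, not far from the macrophage count. Those that rose were *S100a8*, *S100a9* and *Cxcr2* of neutrophils and *Cd68* and *Csf1r* of macrophages. Over 43 livers *Ngp*, *Adgre1* and *Marco* were also called. Of 6 hepatocyte markers 4 fell at 30 µg/kg (*Apob*, *Ttr*, *Cps1* and *Serpina1c*), against 14.1% of all genes called lower. With scaling by library size alone 2 of the 6 fell, against 7% of all genes. Neutrophil marker sums were 0.493 to 1.11 CPM in the vehicle group and 2.06 to 7.56 CPM at 30 µg/kg. Macrophage sums were 176 to 282 CPM and 155 to 464 CPM, ranges that overlap. At 3 µg/kg, replicate 1, which held 12.1 CPM of *Saa3* and the most *Saa1* and *Saa2* of its group, had the highest sums of that dose, 16.0 CPM for neutrophils and 704 CPM for macrophages. Replicate 2, with the most *Saa3* (15.4 CPM), had 2.26 and 337 CPM, within the range of the others. The part of immune cells in the rise of the *Saa* genes was not tested. None of 4 cholangiocyte markers was called, and adipocyte markers summed to at most 0.752 CPM in any liver.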

How the data were processed

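The deposited files held raw counts per gene, 1 file per liver. The authors made them from single-end TruSeq reads of 50 bases, trimmed, aligned to GRCm38 and counted without reads that aligned to more than 1 place. The submitters' processing notes name TopHat 1.4.1, SAMtools 0.1.19, HTSeq 0.6.1 and FastQC 0.11.2. Strand use in counting is not given in the sources used here. The labels do not name sequencing pools, so no batch term was fitted.

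The 17464 genes with more than 4 reads in any sample entered an edgeR 4.0.16 fit (R 4.3.3; TMM scaling, 1 coefficient per group, all 45 livers). The empirical Bayes procedure of the study was not used here. Adjustment was by Benjamini-Hochberg over all genes tested, and an SE is the log2 fold change over the root of F. Alternatives were DESeq2 1.42.0, limma 3.58.1, other scaling, filters and prior counts, summed copies, only the livers of a dose and vehicle, and each liver left out. Correlations used scipy 1.17.1. Depth was 11767284 to 56509899 reads per liver, and low genes are least precise. No replicates were alike within sampling noise. The fit was tested on simulated data.

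Besides the 10 genes, each list gives counts and values of at most 4 genes, those with the smallest adjusted p at 30 µg/kg or whose call differed at lower doses. *Alb*, *Il6*, *Stat3*, *Cebpb*, *Socs3*, *Mt2*, the fibrinogen genes, *Hpx*, *Cd14*, the fifth receptor and the markers are named outside that rule, after their values were seen. The members and lists were chosen with earlier results of these data known. The list of lymphocyte markers is not reported here.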

Additional observations from a re-analysis of the deposited data

Results flagged for a closer look

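In each of the 90 groups of 5 livers, formed by 10 genes and 9 doses, the highest and the lowest liver were compared with the nearest other by Dixon's ratio, with a critical value of 0.71. It was exceeded 20 times, always by the highest liver, where chance gives about 1 in 20 groups. Replicate 5 at 0.01 µg/kg accounted for 8 of these and replicate 5 at 0.1 µg/kg for 6. At 0.01 µg/kg the values were *Saa1* 129.9 CPM, *Saa2* 44.1 CPM, *Saa4* 397 CPM, *Orm1* 1059 CPM, *Orm2* 293 CPM, *Orm3* 23.9 CPM, *Hp* 5813 CPM and *Lcn2* 179 CPM. At 0.1 µg/kg they were *Saa1* 348 CPM, *Saa2* 167 CPM, *Saa4* 507 CPM, *Orm2* 40.6 CPM, *Hp* 4549 CPM and *Lcn2* 94.8 CPM.

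The other 6 came from 4 livers. Replicate 1 at 0.3 µg/kg was high in *Hp* (2087 CPM, nearest other 1332 CPM), *Lcn2* (29.02 CPM, nearest 17.6 CPM) and *Crp* (749 CPM, nearest 515 CPM). *Saa4* was high in replicate 5 at 0.03 µg/kg (259.8 CPM, nearest 148 CPM), *Orm2* in replicate 4 at 1 µg/kg (26.3 CPM, nearest 14.5 CPM) and *Crp* in replicate 2 at 0.01 µg/kg (609 CPM, nearest 513 CPM).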

How the results depend on the processing

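No paired analysis was possible because replicate numbers follow accession order and name no shared animal or batch. With only the livers of the dose and the vehicle, the calls at 1, 3 and 10 µg/kg were 1, 5 and 6 of the 10 genes, against 0, 2 and 3 in the fit of all livers. DESeq2 and limma each called 1 at 1 µg/kg. Without both livers that stood apart, chosen after the data were seen, 2 and 5 were called at 1 and 3 µg/kg and 2 between neighbouring doses, and 17 of 45 pairs of genes correlated against 22, or, on deviations from group means, 11 against 29. In the other lists at 30 µg/kg, library size alone called 5 of 10 transcription factors against 3. It took the share of higher calls over all genes from 52.3% to 80.3%. With edgeR's own filter 1 of the inhibitors and feedback genes was called against 3. The livers of the dose and vehicle alone called 5 of the receptors and carriers against 3. The share of all genes called was not counted for the fits of a dose and vehicle, DESeq2, limma or edgeR's own filter. Whether these counts exceed that share is therefore not known. The causes of these shifts were not tested.

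Leaving out each liver of the groups compared gave 0 calls at 0.01 to 1 µg/kg, 2 at 3 µg/kg, 1 to 3 at 10 µg/kg (1 without vehicle replicate 1) and 4 to 5 at 30 µg/kg, 7 to 8 over all groups and 0 between neighbours. The other lists gave 11 for the positive and 4 for the negative acute phase genes, 3 to 4 for cytokines, 5 for receptors and kinases, 2 to 3 for transcription factors, 2 to 3 for inhibitors and 3 for receptors and carriers. Of 1472 fold changes recomputed, 1431 stayed on their side of the threshold, 15 lost and 26 gained a call, and none reversed. Of the 1431, 55 changed sign without a call in either fit. The gained calls include 2 from the summed *Orm* counts and 1 from the summed *Saa1* and *Saa2* counts. In those the sum was set against a single copy. DESeq2 gave an adjusted p for 72 of 80.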
